A study of Mus musculus with 6 samples.

Results

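The antibody transcripts of inguinal fat were read from 10 genes of a deposited table of 54532. They are the 8 heavy chain constant region genes Ighm, Ighd, Ighg3, Ighg1, Ighg2b, Ighg2c, Ighe and Igha, and the plasma cell genes Jchain and Mzb1. The genes were picked by name and function, and all 10 were found. Bulk RNA sequencing covered 6 samples of white fat from the inguinal depot, which lies under the skin. All mice were started on a high fat diet at 8 weeks of age and kept on it for 15 weeks. The 3 control samples carried a floxed Cdo1 gene (Cdo1 flox/flox, also labelled WT), and in the 3 Cdo1AKO samples Cdo1, which encodes cysteine dioxygenase, was deleted in adipose tissue. The Cre line that drives the deletion, the strain and the sex are not given in the sources used here. Nor do the labels say whether each sample was a different animal. P-values therefore reflect the spread among these samples alone, and that spread may be technical. Values for a group are given in the order of replicates 1, 2 and 3.

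A naive B cell makes IgM and IgD from 1 long transcript that starts at its rearranged V segment and is spliced to Ighm or Ighd. After activation, often in the germinal centre of a lymph node, recombination joins the same V segment to a downstream constant gene, and the cell switches to IgG, IgE or IgA. Plasma cells secrete the antibody. They carry Jchain, which links IgM and IgA into polymers, and Mzb1, an endoplasmic reticulum protein that helps antibody assembly, while Cd79a, part of the B cell receptor, is lower in them than in B cells. Inguinal fat holds a lymph node, so a piece of the depot can be dissected with or without it.

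In the mm10 build all 8 heavy chain genes lie on the minus strand of chromosome 12, in the order in which switching meets them. Ighm spans 113418558 to 113422730 and Ighd 113406604 to 113416324. Ighg3 spans 113356224 to 113361232, Ighg1 113325240 to 113330523, Ighg2b 113302965 to 113307933 and Ighg2c 113285325 to 113288932. Ighe spans 113269260 to 113273248 and Igha 113254830 to 113260236. Jchain lies on chromosome 5 (88519809 to 88527891, minus strand) and Mzb1 on chromosome 18 (35647266 to 35649367, minus strand).

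Libraries held 16275184 to 19205804 counts. Over 23 lymph node stroma and B cell identity genes, none of them an immunoglobulin gene, the median level was 42.5 to 66.7 CPM (counts relative to library size, scaled with edgeR's TMM factors) in control 2, control 3, Cdo1AKO 1 and Cdo1AKO 3. It was 0.0614 CPM in control 1 and 0.386 CPM in Cdo1AKO 2. Libraries above 5 CPM are called libraries with lymph node transcripts below, so each genotype had 2 with them and 1 without. Adipocyte markers were present in all 6 libraries (summed level 16956 to 44188 CPM), and markers of mammary and other epithelium were near 0 (summed 0.836 to 4.01 CPM). Cdo1 had 887, 432 and 631 CPM in the controls and 123, 392 and 134 CPM in Cdo1AKO, so Cdo1AKO 2 lay close to control 2. Cdo1AKO 1 and Cdo1AKO 3 were far more alike than any other pair of a group, with a chi-square per gene of 5.59 against 23.1 to 204. The edgeR fits, the unswitched and IgG shares and the Ighg2b ratio to Cd79a are therefore also given without 1 of these libraries. The make-up of IgG is given per library only.

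In these 6 libraries the antibody classes differed both with the lymph node transcripts and with the genotype label. No class share passed between genotypes, and libraries with and without these transcripts were not tested against each other. Libraries with lymph node transcripts held IgM and IgD together with IgG, and IgG took a larger share in the control libraries. The control library without them held few antibody transcripts, and IgA was a large share of those. Among heavy chain counts, the Cdo1AKO library without them held almost only Ighm, which lowers every other share there. Its Igha level of 22.9 CPM was the highest of the 6 libraries. Shares below are percentages of a library's counts over the 8 heavy chain genes, which summed to 409, 19957 and 11958 counts in the controls and to 15320, 22083 and 13214 counts in Cdo1AKO. The intervals given are exact Clopper-Pearson 95% intervals and, like every interval and floor here, cover counting error only.

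**Figure D1:**
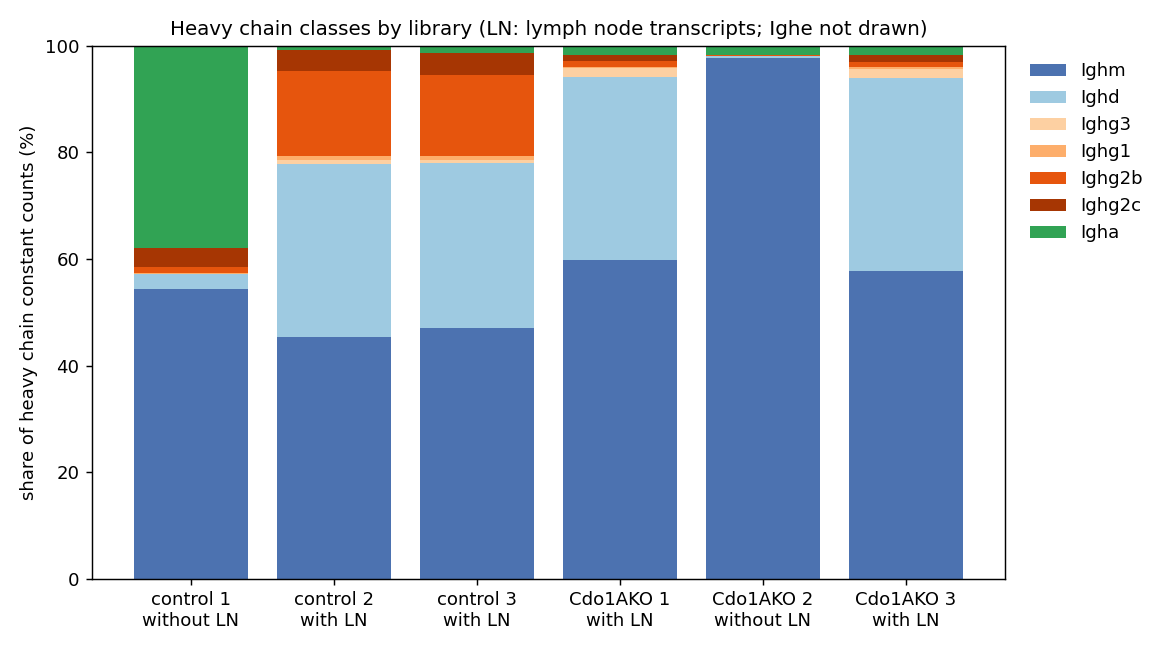
Share of heavy chain constant region counts taken by each gene (y axis, %) in each of the 6 libraries (x axis), with LN marking lymph node transcripts. IgG (orange shades) took 21.5% and 20.7% in control 2 and 3 and 4.07% and 4.25% in Cdo1AKO 1 and 3, Igha (green) took 37.9% in control 1, and Ighm (dark blue) took 97.8% in Cdo1AKO 2.

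Unswitched transcripts, Ighm and Ighd together, took 57.2%, 77.8% and 78.0% in the controls and 94.2%, 98.2% and 94.0% in Cdo1AKO. The groups did not overlap, and the share was 24.5 percentage points higher in Cdo1AKO (71.0 ± 11.9% against 95.5 ± 2.35%, SD, n = 3 libraries each). The exact two-sided permutation test gave p = 0.1, the smallest that 3 against 3 libraries allow, and 0.15 adjusted over the 3 classes tested, so the difference cannot pass the threshold of 0.05 in this design. Without Cdo1AKO 1 or Cdo1AKO 3 the difference was 25.1 or 25.2 points. With counts taken per kilobase of gene length the shares were close to those above, from 63.5% in control 1 to 98.7% in Cdo1AKO 2.

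IgG, the sum of Ighg1, Ighg2b, Ighg2c and Ighg3, took 4.89%, 21.5% and 20.7% in the controls and 4.07%, 0.217% and 4.25% in Cdo1AKO. Again the groups did not overlap, but control 1 lay close to Cdo1AKO 1 and 3 and rested on 20 counts (interval 3.01% to 7.45%). The difference was -12.9 percentage points (exact permutation p = 0.1, adjusted p = 0.15). Without Cdo1AKO 1 or Cdo1AKO 3 it was -13.5 or -13.6 points (exact permutation p = 0.2 for both). With Ighd left out of the total the groups overlapped (difference -17.9 points, exact permutation p = 0.3). IgA took 37.9%, 0.666% and 1.19% in the controls and 1.69%, 1.61% and 1.74% in Cdo1AKO, and control 1 alone set the mean difference of -11.6 points (exact permutation p = 1.0). Among libraries with lymph node transcripts the IgA share was 0.789 points higher in Cdo1AKO.

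**Figure D2:**
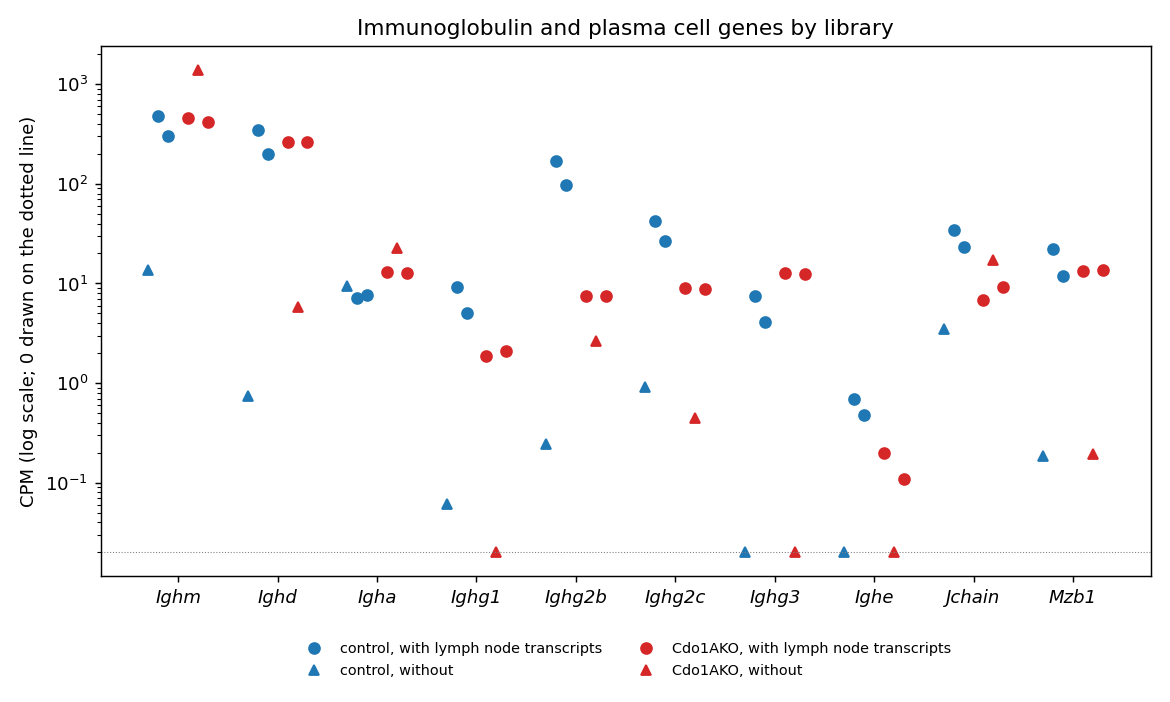
Level of each of the 10 genes (x axis) in CPM (y axis, log scale, 0 drawn on the dotted line), 1 symbol per library. Circles are libraries with and triangles libraries without lymph node transcripts. Igha is the gene whose groups do not overlap, and Ighg2b separates the circles of the groups most widely.

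Ighm encodes the heavy chain of IgM. Its level was 13.6, 484 and 301 CPM in the controls and 459, 1389 and 418 CPM in Cdo1AKO. The groups overlapped: control 1 stood far below every other library and Cdo1AKO 2 far above, while the 4 libraries with lymph node transcripts lay within 301 to 484 CPM. The log2 fold change of Cdo1AKO over control was 1.5 ± 1.13 (SE, 3 libraries per group; edgeR adjusted p = 0.682) and 0.16 (adjusted p = 0.663) among the libraries with lymph node transcripts.

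Ighd encodes the heavy chain of IgD, which marks mature naive B cells. It had 0.736, 347 and 199 CPM in the controls and 263, 5.85 and 263 CPM in Cdo1AKO. Unlike Ighm, it was low in both libraries without lymph node transcripts. The counts of Ighm per count of Ighd were 1.40, 1.52, 1.74 and 1.59 in the 4 libraries with these transcripts, 18.5 in control 1 and 237 in Cdo1AKO 2. The log2 fold change was -0.04 ± 1.76 (edgeR adjusted p = 0.996), and its sign turned with the lymph node term described below.

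Among the switched classes, IgG2b and IgG2c are the mouse IgG subclasses that bind complement and the activating Fc receptors well, and IgG1 is typical of type 2 responses. Among libraries with lymph node transcripts Ighg2b carried the widest IgG difference, and Ighg2b and Ighg2c are related in sequence. The first 120 bases of their constant region coding sequence are shown to let a reader see how far reads can tell them apart (GENCODE M21 transcripts, GRCm38, minus strand; Ighg2b chr12:113307814-113307933, Ighg2c chr12:113288813-113288932). Capitals mark the 13 bases that differ.
Ighg2b: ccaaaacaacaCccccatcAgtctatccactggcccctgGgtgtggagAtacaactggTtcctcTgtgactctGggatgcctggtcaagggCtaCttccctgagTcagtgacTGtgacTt
Ighg2c: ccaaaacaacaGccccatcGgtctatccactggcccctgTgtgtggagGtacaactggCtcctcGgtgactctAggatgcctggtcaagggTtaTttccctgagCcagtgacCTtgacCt
Over 1102 aligned bases the transcripts were 82.3% identical. Of all windows of 50 bases, 4.15% of those of Ighg2b and 5.49% of those of Ighg2c also occurred in another heavy chain constant gene, as did 1.58% for Ighg3, 0.393% for Ighg1 and none for Ighm, Ighd, Ighe or Igha. The sources used here do not give how reads that match several genes were counted.

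Ighg2b had 0.245, 170 and 97.0 CPM in the controls and 7.45, 2.64 and 7.47 CPM in Cdo1AKO. Both controls with lymph node transcripts stood above every other library, and control 1, from 4 counts, below all. Among libraries with lymph node transcripts each control exceeded each Cdo1AKO library by 13.0-fold to 22.8-fold. The log2 fold change over all libraries was -3.92 ± 1.65 and did not pass (edgeR adjusted p = 0.488; DESeq2 adjusted p = 0.29).

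Ighg2c had 0.920, 42.5 and 26.8 CPM in the controls and 9.05, 0.450 and 8.89 CPM in Cdo1AKO. Control 2 and 3 were again the highest, with a narrower gap of 2.96-fold to 4.78-fold between libraries with lymph node transcripts, and both libraries without them lay below 1 CPM (log2 fold change over all libraries -1.93 ± 1.38, edgeR adjusted p = 0.669). Ighg1 had 0.0614, 9.31 and 5.09 CPM in the controls and 1.85, 0 and 2.09 CPM in Cdo1AKO. It was again higher in controls with lymph node transcripts, by 2.44-fold to 5.03-fold, and the libraries without them had 1 count and 0 counts (log2 fold change -1.86 ± 1.56, edgeR adjusted p = 0.702).

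Ighg3, the first IgG gene after Ighd on the chromosome, went the other way. It had 0, 7.54 and 4.13 CPM in the controls and 12.8, 0 and 12.4 CPM in Cdo1AKO. Both libraries without lymph node transcripts were at 0 counts, and among those with them Cdo1AKO was higher by 1.64-fold to 3.11-fold (log2 fold change over all libraries 1.11 ± 1.75, edgeR adjusted p = 0.844).

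The make-up of IgG therefore differed between the genotypes among libraries with lymph node transcripts. Ighg2b was 74.1% and 72.9% of IgG counts in control 2 and 3 and 23.9% and 24.2% in Cdo1AKO 1 and 3. Ighg3 was 3.29% and 3.10% in those controls and 41.2% and 40.1% in those Cdo1AKO libraries. Per kilobase the leading gene of these controls remained Ighg2b, with 11.6% of heavy chain transcripts in control 2 against 5.89% for Ighg2c, whereas in Cdo1AKO 1 the order turned and Ighg2c (1.70%) stood above Ighg3 (1.27%). Without lymph node transcripts, Ighg2c gave 15 of the 20 IgG counts of control 1, and Ighg2b gave 41 of the 48 of Cdo1AKO 2.

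Igha encodes the heavy chain of IgA, the class of mucosal plasma cells. It had 9.51, 7.12 and 7.61 CPM in the controls and 12.9, 22.9 and 12.6 CPM in Cdo1AKO. Every Cdo1AKO library lay above every control. In contrast to Ighd and the IgG genes, the level in libraries without lymph node transcripts was not below that in the rest: within each genotype the library without them was the highest. The log2 fold change was 0.999 ± 0.29 (unadjusted p = 0.0136, edgeR adjusted p = 0.372; DESeq2 adjusted p = 0.138).

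Ighe, the heavy chain of IgE, had 0, 13 and 9 counts in the controls and 4, 0 and 2 counts in Cdo1AKO. It was too low to be tested, and its share of heavy chain counts stayed at or below 0.0753%. With a floor of 3 counts of the total, 0 of 22083 counts in Cdo1AKO 2 allows a share of up to 0.0136%, and 0 of 409 counts in control 1 allows up to 0.733% (exact upper limits 0.0167% and 0.898%).

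Jchain had 3.50, 34.7 and 23.0 CPM in the controls and 6.90, 17.2 and 9.22 CPM in Cdo1AKO. Controls with lymph node transcripts were the highest, and Cdo1AKO 2, without them, was the third. Among libraries with lymph node transcripts controls were higher by 2.49-fold to 5.03-fold, and over all libraries the log2 fold change was -0.88 ± 0.78 (edgeR adjusted p = 0.716).

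Mzb1 had 0.184, 22.3 and 12.0 CPM in the controls and 13.5, 0.193 and 13.6 CPM in Cdo1AKO. It was present in the 4 libraries with lymph node transcripts and rested on 3 counts in each of the other 2 (log2 fold change -0.34 ± 1.56, edgeR adjusted p = 0.951). Jchain and Mzb1 thus did not follow each other: the counts of Mzb1 per count of Jchain were 0.641 and 0.522 in control 2 and 3, 1.96 and 1.47 in Cdo1AKO 1 and 3, 0.0526 in control 1 and 0.0112 in Cdo1AKO 2.

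With genotype as the only term 0 of the 9 tested members passed, as did 0% of all 16623 genes tested by edgeR. At an unadjusted p under 0.05 there was 1 of 9, Igha, against 10.4% of all genes. DESeq2 also called 0 members, against 1.55% of genes. Igha was the 1 tested member of 9 whose CPM did not overlap between groups, which held for 18.6% of all genes. No member passed with any 1 library left out, but several fold changes moved by over 1.5 times. Without control 2 the log2 fold change was 2.26 for Ighm, -0.97 for Ighg1, -1.18 for Ighg2c, 2.01 for Ighg3 and -0.26 for Jchain. Without control 1 it was 0.93 for Ighm, 0.52 for Ighg3 and -1.39 for Jchain. Without Cdo1AKO 2 it was 0.72 for Ighm, 0.66 for Igha, 1.68 for Ighg3 and -1.34 for Jchain. For Ighg3 it was also 0.67 without Cdo1AKO 1 and 0.73 without Cdo1AKO 3.

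A fit with a term for lymph node transcripts called 3 of 9 members, against 4.13% of all genes. Igha rose in Cdo1AKO (0.95 ± 0.18, edgeR adjusted p = 0.0383), 1 of 9 against 2.26% of genes called higher. Ighg2c (-1.83 ± 0.26, adjusted p = 0.026) and Ighg1 (-1.89 ± 0.39, adjusted p = 0.0482) fell, 2 of 9 against 1.87% called lower. Ighg2b did not pass in this fit (-3.03 ± 1.15, adjusted p = 0.178). Without control 2, Ighg2c alone remained called (adjusted p = 0.0493), and without control 3, Cdo1AKO 1 or Cdo1AKO 3 no gene of the table passed.

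Restricted to the 4 libraries with lymph node transcripts, a comparison chosen after the values were seen, edgeR called 6 of 9 members, against 15.3% of all genes. Igha (0.79 ± 0.17, adjusted p = 0.0232) and Ighg3 (1.11 ± 0.28, adjusted p = 0.039) rose in Cdo1AKO, 2 of 9 against 7.65% of genes called higher. Ighg2b (-4.16 ± 0.28, adjusted p = 0.00224), Ighg2c (-1.95 ± 0.23, adjusted p = 0.00494), Jchain (-1.85 ± 0.24, adjusted p = 0.00658) and Ighg1 (-1.87 ± 0.35, adjusted p = 0.0161) fell, 4 of 9 against 7.7% called lower. Ighm, Ighd and Mzb1 did not pass, with log2 fold changes of 0.16, -0.06 and -0.35. Without Cdo1AKO 1 or Cdo1AKO 3 no gene of the table passed in this comparison, although Ighg2b kept a log2 fold change of -4.16 or -4.17 (edgeR adjusted p = 0.217 and 0.209). In bulk tissue, fewer cells of a type and less RNA per cell cannot be told apart.

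Relative to Cd79a, the libraries with lymph node transcripts were alike for the B cell genes. The libraries without them held far more Ighm, Igha and Jchain per B cell transcript, and Ighg2c and Mzb1 were also highest there. Cd79a itself had 14, 4135 and 2374 counts in the controls and 3090, 24 and 2922 in Cdo1AKO, so ratios in control 1 and Cdo1AKO 2 rest on small denominators. Cd79a is also 1 of the 23 genes by which the libraries were told apart, so higher ratios in those without lymph node transcripts are partly fixed by that choice and are given as a description. The ratios below are counts per Cd79a count and serve to compare libraries, not genes.

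**Figure D3:**
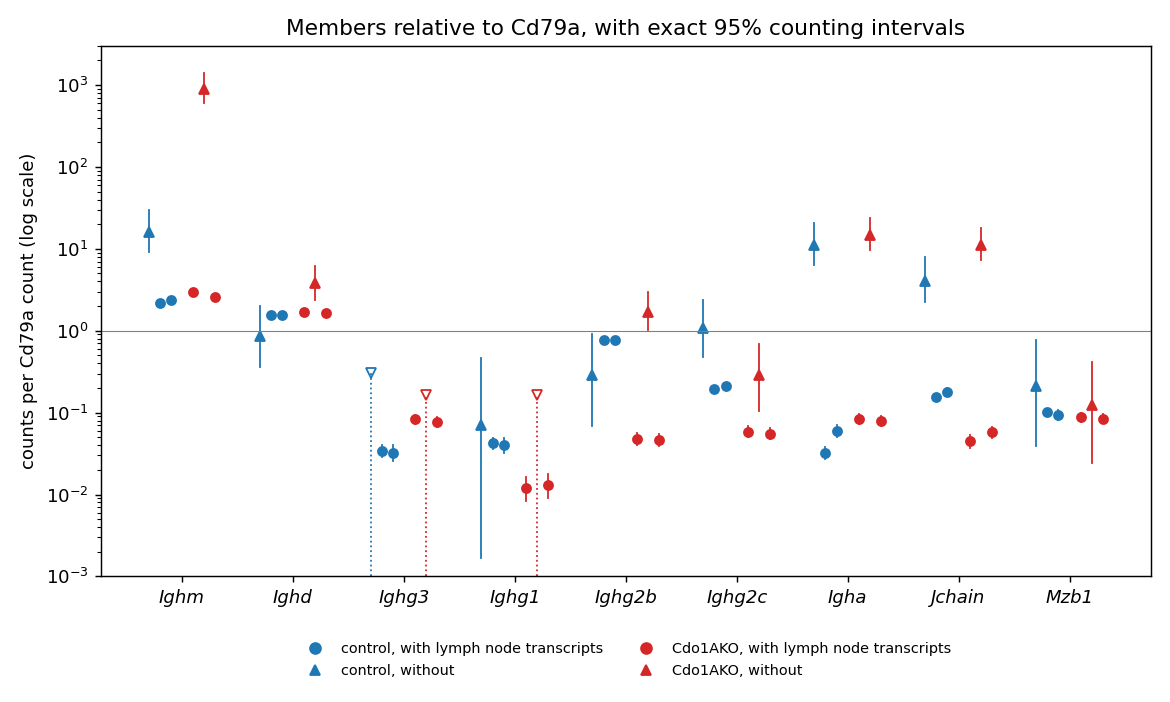
Counts of 9 of the 10 genes (x axis; Ighe is left out) per count of Cd79a (y axis, log scale) in each library, with exact 95% counting intervals as vertical lines. Open triangles at dotted lines are upper bounds for libraries with 0 counts. Ighm, Igha, Jchain and, by less, Ighg2c and Mzb1 lie highest in the libraries without lymph node transcripts (filled triangles). Ighg2b, Ighg2c, Ighg1 and Jchain lie lower in Cdo1AKO than in control among the circles.

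Ighm per Cd79a was 2.19, 2.37, 2.97 and 2.61 in control 2, control 3, Cdo1AKO 1 and Cdo1AKO 3. It was 15.9 in control 1 (exact interval 9.25 to 29.5) and 899.5 in Cdo1AKO 2 (604 to 1404). Both intervals lie wholly above the other 4 libraries. The difference between genotypes in the mean log2 ratio, with 0.5 added to each count, was 2.14 (exact permutation p = 0.5).

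Igha per Cd79a was 0.0322 and 0.0598 in control 2 and 3, 0.0838 and 0.0787 in Cdo1AKO 1 and 3, 11.1 in control 1 and 14.8 in Cdo1AKO 2. Jchain per Cd79a was 0.157 and 0.181 in control 2 and 3, 0.0447 and 0.0575 in Cdo1AKO 1 and 3, 4.07 in control 1 and 11.2 in Cdo1AKO 2. For both genes the 2 libraries without lymph node transcripts stood far above the rest. Ighg2c per Cd79a was 0.192 and 0.211 in control 2 and 3, 0.0586 and 0.0554 in Cdo1AKO 1 and 3. It was 1.07 in control 1 and 0.292 in Cdo1AKO 2, so these 2 were again the highest. Mzb1 per Cd79a stayed between 0.0845 and 0.214 in all 6 libraries. Its highest values, 0.214 in control 1 and 0.125 in Cdo1AKO 2, rest on 3 counts of Mzb1 each.

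Ighg2b per Cd79a was 0.767 and 0.762 in control 2 and 3 against 0.0482 and 0.0465 in Cdo1AKO 1 and 3, so the gap between these libraries remained after division by Cd79a. It was 0.286 in control 1, from 4 counts, and 1.71 in Cdo1AKO 2, the highest of all. The difference in mean log2 ratio over all libraries was -1.86. Without Cdo1AKO 1 or Cdo1AKO 3 it was -1.01 or -0.98 (exact permutation p = 0.8 for both). Ighd per Cd79a was 0.857, 1.57 and 1.56 in the controls and 1.70, 3.79 and 1.64 in Cdo1AKO, without overlap (difference in mean log2 ratio 0.77). The groups overlapped with other B cell genes as denominator (0.34 with Cd79b and 0.17 with Ms4a1, exact permutation p = 0.2 and 0.8). The difference was 0.38 without Cdo1AKO 2 and 0.48 without control 1 (exact permutation p = 0.5 for both). Ighg1 per Cd79a did not overlap either (difference -1.92). With Cd79a both gave an exact permutation p = 0.1, the smallest the design allows, and 0.5 adjusted over the 10 genes. For the other 8 genes the exact permutation p was 0.3 to 0.7.

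Several genes of the germinal centre, a site of B cell activation and class switching, were lower in Cdo1AKO among the libraries with lymph node transcripts, as Ighg2b was. Over all 6 libraries 0 of the 10 tested of 12 listed genes passed (median log2 fold change -0.34, against 0.06 over all genes). Among the 4 libraries with lymph node transcripts 5 of 11 tested fell and 0 rose (median -0.63, against 0.0037 over all genes; 7.7% of all genes were called lower and 7.65% higher). Those 5 were Rgs13, Mybl1, Bcl6, S1pr2 and Apex2. Il4ra and Tgfbr2 had positive log2 fold changes that did not pass (0.43 and 0.19, edgeR adjusted p = 0.0562 and 0.279). Apart from Apex2, Mybl1 and Ung, the genes described here were chosen after their values were seen.

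**Figure D4:**
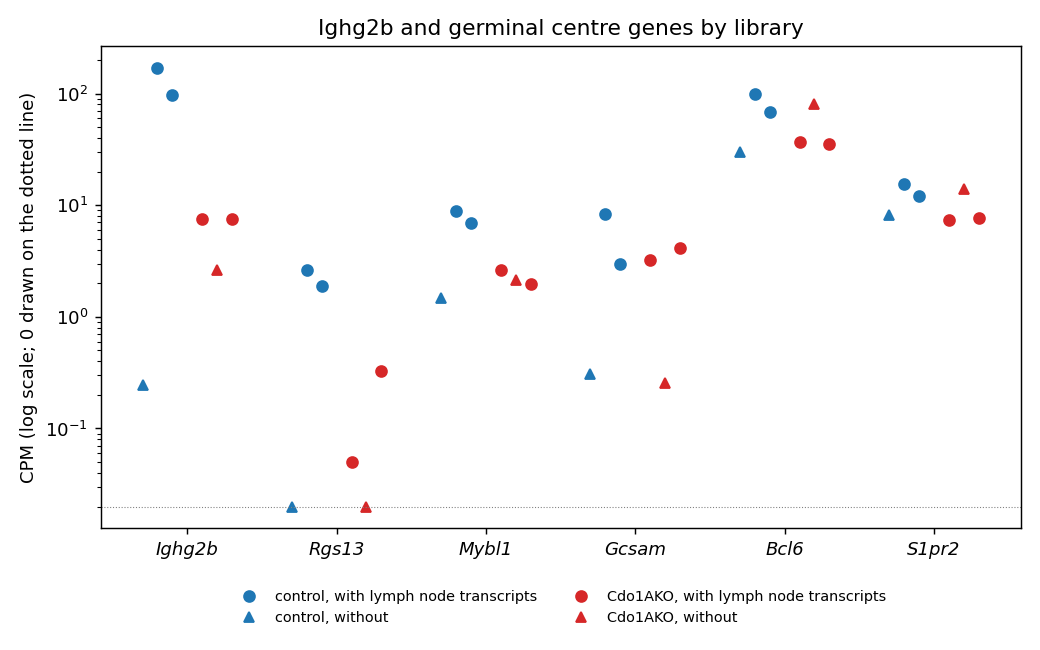
Ighg2b and 5 germinal centre genes (x axis) in CPM (y axis, log scale, 0 drawn on the dotted line), 1 symbol per library. Among circles, the libraries with lymph node transcripts, both controls lie above both Cdo1AKO libraries for each gene apart from Gcsam.

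Bcl6, the transcription factor that germinal centre B cells need, had 29.9, 98.5 and 68.7 CPM in the controls and 36.6, 80.0 and 35.3 CPM in Cdo1AKO (-1.22 ± 0.17 in the 4 libraries, edgeR adjusted p = 0.00714). It was high in Cdo1AKO 2 too, a library with 24 counts of Cd79a. S1pr2 had 8.22, 15.5 and 12.0 CPM in the controls and 7.35, 13.9 and 7.74 CPM in Cdo1AKO. Apex2 had 15.9, 18.8 and 16.9 CPM in the controls and 11.4, 14.8 and 11.1 CPM in Cdo1AKO. Bcl6, S1pr2 and Apex2 thus did not follow B cell transcripts in Cdo1AKO 2.

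Mybl1, a transcription factor of germinal centre B cells, had 1.47, 8.93 and 6.86 CPM in the controls and 2.65, 2.12 and 1.98 CPM in Cdo1AKO (-1.77 ± 0.27 in the 4 libraries, edgeR adjusted p = 0.00867). Rgs13, a regulator of chemokine signalling in these cells, had 0, 49 and 35 counts in the controls and 1, 0 and 6 counts in Cdo1AKO (-3.57 ± 0.64, edgeR adjusted p = 0.0146). Gcsam, another germinal centre B cell gene, did not pass: it had 0.307, 8.35 and 3.0 CPM in the controls and 3.25, 0.257 and 4.12 CPM in Cdo1AKO, and its groups overlapped. Ung, which removes uracil from DNA, did not pass either (-0.56 in the 4 libraries, edgeR adjusted p = 0.0814).

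The B cell identity list did not move with these genes: 0 of 16 passed among the 4 libraries (median -0.15), and its summed level was 1913 and 1106 CPM in control 2 and 3 against 1327 and 1328 CPM in Cdo1AKO 1 and 3. T cell markers did differ: 9 of 9 rose, against 7.65% of all genes, with summed levels of 346 and 203 CPM in those controls and 905 and 920 CPM in those Cdo1AKO libraries. Adipocyte markers fell in 4 of 7, against 7.7% of all genes, with summed levels of 25883 and 29640 CPM against 16956 and 18459 CPM. The part of these differences in the IgG and germinal centre values was not tested. As for the members, no gene passed without Cdo1AKO 1 or Cdo1AKO 3.

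Other plasma cell genes were tested as a list of 18 that holds transcription factors, surface receptors and secretory proteins. Of 17 tested, 0 passed over all libraries (median 0.20). With the lymph node term Slamf7 and Sec11c rose, 2 of 17 against 2.26% of all genes, and 0 fell. Among the 4 libraries with lymph node transcripts 4 rose, namely Slamf7, Sec11c, Pdk1 and Cd28, which is also a T cell gene, and 1 fell, Xbp1, against 7.65% and 7.7% of all genes. Prdm1, which encodes the plasma cell factor Blimp-1 and is also made by other cells, had 2.15, 3.0 and 3.0 CPM in the controls and 5.15, 6.05 and 5.54 CPM in Cdo1AKO. Xbp1, a driver of the secretory pathway in many cell types, had 406, 258 and 338 CPM in the controls and 204, 176 and 177 CPM in Cdo1AKO. Neither overlapped between groups, which held for 18.6% of all genes. Neither passed over all libraries (log2 fold change 1.04 ± 0.25 and -0.85 ± 0.21, edgeR adjusted p = 0.345 for both). Among the 4 libraries with lymph node transcripts Xbp1 passed (-0.65 ± 0.16, edgeR adjusted p = 0.0336) and Prdm1 did not (0.83 ± 0.23, edgeR adjusted p = 0.054).

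In Cdo1AKO 2, where Ighm was highest, the plasma cell genes differed among themselves. The genes of this paragraph were chosen after their values were seen. Tnfrsf17, the receptor BCMA of plasma cells, was too low to be tested in any library. It had 0.322 CPM there and 0.123 to 0.300 CPM in the other libraries. Irf4 was at its lowest with 4.44 CPM, against 41.2 to 223 CPM elsewhere. Its highest level was in control 1, where Cd79a was at 0.859 CPM, so Irf4 did not follow B cell transcripts here. Pou2af1, a cofactor of immunoglobulin transcription, had 0.772 CPM. Sdc1, which encodes CD138 and is also made by epithelium and other cells, was at its highest with 26.1 CPM against 11.4 to 14.5 CPM. This library was also the highest for Prdm1, for the secretory pathway gene Fkbp11 (3.15 CPM against 0.920 to 2.51 CPM) and for Edem1, of endoplasmic reticulum degradation (219 CPM against 118 to 170 CPM).

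The V segments and light chains gave a separate reading of the same transcripts. Cdo1AKO 2 differed from every other library: much Ighm came with few V segment counts, and those were dominated by 1 heavy and 1 light chain segment. The table holds 348 V segment genes, over which the controls had 83, 5362 and 3253 counts and Cdo1AKO had 2079, 439 and 2154. The effective number of V segments, the inverse of the summed squared shares, was 51.4 to 61.6 in the 4 libraries with lymph node transcripts, 17.9 in control 1 and 2.60 in Cdo1AKO 2.

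**Figure D5:**
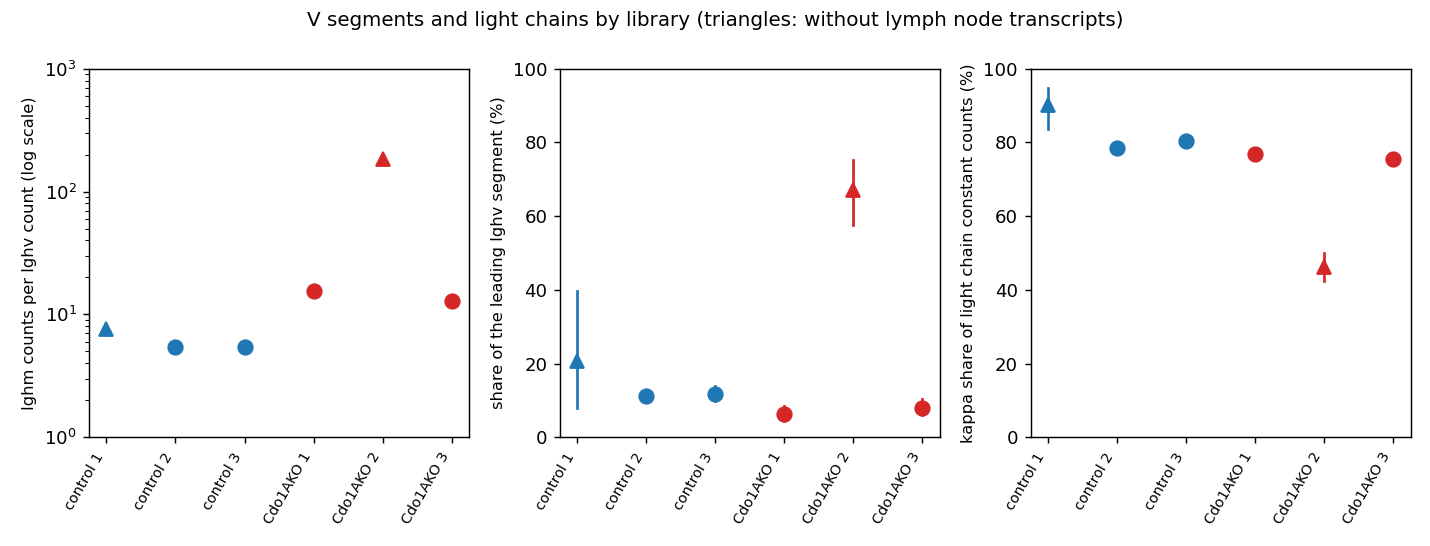
Ighm counts per heavy chain V segment count (left, log scale), the share of the leading heavy chain V segment (middle, %) and the kappa share of light chain constant counts (right, %), by library, with exact 95% counting intervals in the middle and right panels. Cdo1AKO 2 stands apart in each panel, with 183 Ighm counts per V count, 66.9% from 1 segment and 46.1% kappa.

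Among heavy chain V segments, Ighv1-72 gave 79 of the 118 counts of Cdo1AKO 2 (66.9%, interval 57.7% to 75.3%), a segment with near copies (below). In the libraries with lymph node transcripts the leading segment took 6.20% to 11.7%. The libraries of a group shared it: Ighv1-18 in control 2 and 3 (11.3% and 11.7%), and Ighv1-26 in Cdo1AKO 1 and 3 (6.20% and 7.97%). In control 1 Ighv14-1 took 20.7%, from 6 counts. Counts of Ighm per heavy chain V count were 7.66, 5.39 and 5.39 in control 1 to 3, 15.4 and 12.9 in Cdo1AKO 1 and 3, and 183 in Cdo1AKO 2. The high Ighm of Cdo1AKO 2 was thus not matched by V segment counts. Nor was it matched by light chains: heavy chain constant counts per light chain constant count were 33.5 there and 2.36 to 3.35 in the other 5 libraries.

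Most mouse antibodies carry a kappa light chain, and the kappa share of light chain constant counts was 75.6% to 90.2% in 5 libraries. In Cdo1AKO 2 it was 46.1% (interval 42.3% to 50.02%), and Iglc1, a lambda constant gene, took 50.8% there against 3.87% to 6.12% elsewhere. The lambda V segment Iglv1 gave 260 of the 439 V counts of that library (59.2%, interval 54.5% to 63.9%). Its near copy Iglv2 gave 1. The last 120 bases of both segments are shown because the call of 1 segment over the other rests on few bases (GENCODE M21 transcripts, GRCm38, minus strand; Iglv1 chr16:19085017-19085136, Iglv2 chr16:19260401-19260520). Capitals mark the 4 bases that differ.
Iglv1: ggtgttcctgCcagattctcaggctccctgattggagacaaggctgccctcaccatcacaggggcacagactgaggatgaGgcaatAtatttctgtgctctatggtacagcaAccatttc
Iglv2: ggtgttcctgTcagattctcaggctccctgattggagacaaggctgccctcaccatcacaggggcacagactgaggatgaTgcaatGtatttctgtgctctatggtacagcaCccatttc
The transcripts were 96.7% identical over 366 aligned bases, and 22.2% of the windows of 50 bases of Iglv1 also occurred in Iglv2. Of the windows of Ighv1-72, 92.5% also occurred in at least 1 of 182 other heavy chain V genes, most of all in Ighv1-62-3, so counts of Ighv1-72 cannot be told apart from those of its near copies over most of its length.

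Across the 6 libraries, the genes most like 4 of the members were found by Pearson correlation of log2(CPM + 1) over up to 13249 genes, given as a description because the libraries share groups and lymph node transcripts. Ighm was most like D930048N14Rik (r = 0.999), Ccnf (0.997) and Stil (0.997), and Igha most like Eya4 (0.996) and Pm20d1 (0.993). Ighg2b was most like Gpr137c (0.994), Trmt2b (0.986) and Hyou1 (0.982), and Jchain most like Rad54l2 (0.995), Gpalpp1 (0.990) and Casd1 (0.969). None of these is an immunoglobulin gene, since gene segments were left out of the search.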

How the data were processed

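Per the labels' protocols, TRIzol was used for RNA and a NEBNext Ultra kit for the libraries. The authors deposited 1 table of raw counts per gene, per the file headers, with FPKM values, gene lengths and their own comparison, none of which was used beyond gene length. The submitters' processing notes name the build mm10 and, without roles, featureCounts 1.5.0-p3, HISAT2 2.0.5 and DESeq2 1.20.0. Strand is not stated in those sources, so reads of overlapping genes cannot be told apart.

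Counts of 16623 genes passing filterByExpr were tested with edgeR 4.0.16 (TMM, quasi-likelihood, genotype as the only term, Benjamini-Hochberg over all tested genes, threshold 0.05) in R 4.3.3, after the script was tested on simulated data. Class shares and log2 ratios to Cd79a (0.5 added) took exact permutation tests in scipy 1.17.1. Alternatives were other scaling, no filter, DESeq2 1.42.0, limma-voom (limma 3.58.1), a replicate block, a lymph node term and samples left out.

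Named genes were the members, Cd79a, the light chain constant genes, the 3 genes of smallest p of each list described, the 3 genes most correlated with 4 members, and each library's leading V segment. Tnfrsf17, Irf4, Pou2af1, Sdc1, Fkbp11, Edem1, Slamf7, Pdk1, Cd28, Fcmr, Ccr10, Cxcr4, Trim21 and some germinal centre genes fall outside this rule and were chosen after their values were seen. Members and lists were chosen with earlier results of these data known. Where a symbol names several genes, the copy with most counts entered its list. Some genes and settings that these rules name are left out and not reported here, and the germinal centre list was counted accordingly.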

Additional observations from a re-analysis of the deposited data

How the results depend on the processing

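With 6 libraries in groups that mix samples with and without lymph node transcripts, the fit with genotype alone called 0 genes, also under the other scaling factors, without the filter and with limma-voom. DESeq2 called 274 genes, the lymph node term 686 and the 4 libraries with lymph node transcripts 2617. Under that term, 352 were called without control 2 and 0 without each other lymph node library. In the 4 libraries, 6269 were called without control 2, 3811 without control 3 and 0 without Cdo1AKO 1 or 3, the lone sample being assumed to vary like the other group. The cause of these differences was not tested.

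Some directions turned. The log2 fold change of Ighd was 0.89 with limma-voom, 0.45 with the replicate block, 0.54 with the lymph node term, 1.07, 0.46, 0.89 and 0.88 with that term and without control 2, control 3, Cdo1AKO 1 or Cdo1AKO 3, and 0.39 in the lymph node libraries without control 2. Leaving out samples gave -0.63 to 0.82. That of Mzb1 was 0.10 with the block, 0.15 with the term and 0.16 in the lymph node libraries, both without control 2, and -0.92 to 0.57 with samples left out. Ighm was -0.15 in the lymph node libraries without control 3, and Jchain 0.071 with the term and without Cdo1AKO 1. The IgA share difference was 0.789 points in lymph node libraries and ran from -17.9 to 0.754 with samples left out. With Ms4a1 as denominator the ratio difference was -0.013 for Ighg3. With samples left out the ratio differences ran from -0.63 to 3.57 for Ighm, -1.76 to 3.38 for Igha, -3.25 to 0.85 for Jchain and -0.62 to 0.063 for Mzb1.

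Deviations of same-numbered samples from their group means correlated at -0.661, -0.668 and 0.449. Control 1 and Cdo1AKO 2, both without lymph node transcripts, correlated at 0.707, and each pair of unlike lymph node status was negative. These values follow lymph node transcripts, so they cannot tell whether replicate numbers pair the samples. The edgeR fit with the block called 0 genes, with 909 at an unadjusted p under 0.05. Few IgG counts limit control 1 and Cdo1AKO 2, with 20 and 48, although these libraries were as deep as the rest (17830940 and 18065810 counts).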

Other observations

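Receptors and transporters of antibodies, 10 tested of a list of 11, gave 0 that passed over all libraries. Among the 4 libraries with lymph node transcripts 2 of 11 tested rose, Fcer1g and Trim21, against 7.65% of all genes. Fcgrt fell, 1 of 11 against 7.7%. Fcer1g, the signalling chain shared by Fc receptors of myeloid cells, had 20.1, 19.4 and 18.9 CPM in the controls and 30.4, 29.4 and 29.3 CPM in Cdo1AKO. Its groups did not overlap, which held for 18.6% of all genes. The libraries of a group were alike with and without lymph node transcripts (log2 fold change 0.61 ± 0.13, edgeR adjusted p = 0.309 with genotype alone and 0.0448 with the lymph node term). Fcgrt, which encodes the neonatal Fc receptor that recycles IgG, had 582, 352 and 473 CPM in the controls and 274, 305 and 267 CPM in Cdo1AKO (-0.73 ± 0.22, edgeR adjusted p = 0.384 with genotype alone and 0.0732 with the term). Fcmr, the IgM receptor of B cells, had 0.0614, 86.7 and 50.3 CPM in the controls and 67.9, 0.129 and 62.2 CPM in Cdo1AKO. It was thus low in both libraries without lymph node transcripts, where Ighm was at 13.6 CPM (control 1) and 1389 CPM (Cdo1AKO 2).

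Of the homing and survival genes, 10 tested of 12, 0 passed with genotype alone. Among the 4 libraries with lymph node transcripts 3 of 10 rose, Ccr7, Ccr9 and Cxcr4, against 7.65% of all genes, and 0 fell, against 7.7%. Their log2 fold changes there were 2.0, 1.48 and 0.75, and the median of the T cell markers was 1.76. The part of T cells in these values was not tested. Ccr7, the receptor that brings T and B cells into lymph nodes, had 0.245, 43.8 and 26.9 CPM in the controls and 149, 0.901 and 133 CPM in Cdo1AKO (edgeR adjusted p = 0.0222 with the lymph node term). Ccr10, a receptor of IgA plasma cells, was at 1.67 to 3.55 CPM in all 6 libraries.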
